A study of Homo sapiens with 12 samples.

Results

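The peaks described here are the places on human RNA where more RNA was recovered with 3xFLAG-tagged dSpCas9 than from control cells that went through the same anti-FLAG immunoprecipitation (IP). They are all 1964 peaks of 1 deposited list, out of 18128 peaks in the 4 lists of the series. Every peak of that list was taken, with no further selection. dSpCas9 is a Cas9 of Streptococcus pyogenes that has lost its cutting activity. It was made from a plasmid in transiently transfected HEK 293T cells (the Lenti-X line), without a guide RNA and without a nuclear localization signal. The control cells had received the empty vector. Each group, named 3xFLAG-dSpCas9 FLAG IP and Empty vector FLAG IP, had 2 libraries. Both were cross-linked with UV light at 400 mJ/cm2, and RNA was taken from a membrane from 115 kDa upward, so both groups carry the same steps except for the protein.

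In eCLIP, UV light joins a protein to RNA that it touches inside living cells. The protein is then pulled down with an antibody and the attached RNA is sequenced. Cas9 normally holds a guide RNA through the hairpins of its scaffold, and a loop in that scaffold contains a GU. Without a guide the protein is free to meet the RNA of the host cell. Most RNA in the cytoplasm is ribosomal, transfer and messenger RNA. An mRNA has a coding sequence (CDS) that ribosomes read, between a 5′ untranslated region (5′ UTR), where translation starts, and a 3′ UTR, where many regulatory proteins and miRNAs bind.

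The list gives 1 enrichment value per peak, combining both replicates (log2 of reads with dSpCas9 over reads with the empty vector), and the −log10 of a p-value from the authors. The spread between replicates and the depth of the libraries are therefore unknown, and no difference between peaks could be tested over samples. The control is RNA from other cells, so stronger binding and a higher level of the same RNA in cells with dSpCas9 cannot be told apart. Marker genes of the cell line could not be checked either, since a peak list holds no expression levels. Intervals on shares are 95% Wilson intervals. They cover counting error only, and neighbouring peaks are not independent.

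The sequences that follow are from a selection of the peaks described below. They come from hg38 and are written as RNA, 5′ to 3′ on the strand of the gene. Capitals mark a GU together with the 5 bases after it, where a folding model gave the U a pairing probability below 0.7 and each of the 5 bases one above 0.5 (the GU-loop:5nt-stem model of the study). The peaks shown were picked, so the number with a site does not stand for the list, where 784 of 1964 peaks (39.9%) had one. The highest peaks of POLG, UNC119B and EVI5L, not shown, had none. The first set holds windows of at most 30 bases from UTRs. In it, 3 of these 4 peaks contained a called GU site and the peak on CDKN1A did not. The CDIP1 peak had 2 sites, and its window runs from the start of one to the end of the other.
CDIP1, exon 1, 5′ UTR, chr16:4538740-4538769, minus strand: GUGCGACugccagcugccgaggcGUUCGGU
ATF3, 3′ UTR, chr1:212619720-212619749, plus strand: uucugccccagaguggGUCUUGGaccaggg
GDF15, 3′ UTR, chr19:18388975-18389004, plus strand: gcgaccucaguuGUCCUGCccuguggaaug
CDKN1A, 3′ UTR, chr6:36687052-36687081, plus strand: uugucuuuccuggcacuaacguugagcccc

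The second set holds whole peaks in coding sequence. UBAC2, WDR1 and ZNF672 had 1 called site each, COPS3 had 2 that overlap, and TRIM28 and H2AC11 had none. The peaks of TRIM28 and H2AC11 were among the highest but only 24 and 25 nt long. Sites were called in 6.76% of all peaks under 25 nt and in 24.1% of those of 25 to 49 nt.
UBAC2, chr13:99318027-99318069, plus strand: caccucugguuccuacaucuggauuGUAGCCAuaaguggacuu
WDR1, chr4:10081364-10081388, minus strand: ggggauacgccGUGGUCGugugcau
ZNF672, chr1:248847938-248848021, plus strand: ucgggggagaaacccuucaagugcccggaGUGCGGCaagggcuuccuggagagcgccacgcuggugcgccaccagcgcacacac
COPS3, chr17:17254862-17254931, minus strand: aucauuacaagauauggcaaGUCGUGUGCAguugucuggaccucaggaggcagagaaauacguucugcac
TRIM28, chr19:58545827-58545850, plus strand: cugugugagaccuguguagaggcg
H2AC11, chr6:27133387-27133411, plus strand: ggcgguguccugcccaacauucagg

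The third set holds peaks on noncoding RNA, the vault RNA VTRNA1-2, the snoRNA host SNHG5 and the long noncoding RNA FIRRE.
VTRNA1-2, chr5:140718961-140718992, plus strand: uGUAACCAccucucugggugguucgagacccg
SNHG5, chr6:85677836-85677876, minus strand: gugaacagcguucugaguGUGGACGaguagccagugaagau
FIRRE, chrX:131755611-131755701, minus strand: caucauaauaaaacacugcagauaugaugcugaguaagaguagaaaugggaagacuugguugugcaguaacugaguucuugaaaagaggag

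The 1964 peaks lay in 996 genes on 23 chromosomes, with 1014 peaks on the plus strand and 950 on the minus strand. Their median length was 74 nt, within a range of 2 to 247 nt. Peaks that touched each other merged into 1605 intervals. The log2 enrichment had a lowest value of 3.00, which is the filter of the authors, a median of 3.59 and a highest value of 8.01. The middle of the distribution was narrow, from 3.29 at the lower quartile to 4.02 at the upper quartile. 515 peaks reached a log2 of 4, and 81 reached 5. The −log10 p had a median of 8.77, and 90 peaks in 16 genes stood at its ceiling of 400. Of the genes, 597 (59.9%) had 1 peak, 333 had 2 to 4 and 66 had 5 or more. The 13 genes with 10 or more peaks held 202 peaks, 10.3% of the list. 57 peaks overlapped more than 1 gene and were assigned to the one with the largest overlap.

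The 3 RNAs with the highest enrichment each carried their strongest peaks in a different region of the mRNA. CDIP1, which encodes a membrane protein that promotes cell death after stress, had the highest value of the list in its 5′ UTR. H2AC11, which encodes a histone H2A, was second and was covered along almost its whole length. ATF3, which encodes a stress-induced transcription factor, came next, in its 3′ UTR. The fourth, CDKN1A, encodes the cell cycle inhibitor p21 and also peaked in its 3′ UTR.

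CDIP1 had 6 peaks. 2 adjoining peaks in exon 1 of 6, at chr16:4538702-4538732 and chr16:4538733-4538779, had log2 enrichments of 7.13 and 8.01, both at the −log10 p ceiling of 400. Another peak in the 5′ UTR, at chr16:4514630-4514664, reached 4.71. The remaining 3 peaks lay in the CDS and shared the value 3.77. The signal on this RNA was thus highest near its 5′ end. Each of the 6 peaks also overlapped a V5 peak over its own empty vector control, where the highest value was 7.20. Over the whole list, 990 of 1964 peaks (50.4%) overlapped such a V5 peak.

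H2AC11 had 26 peaks that merged into 5 intervals and covered 405 nt of a 493 nt transcript with a single exon. Its log2 enrichment ran from 3.57 to 7.93, with a median of 6.87, and all 26 peaks stood at the ceiling of 400. The 15 peaks between chr6:27133323 and chr6:27133532 were at 6.70 or higher. The 11 peaks upstream of them lay between 3.57 and 5.77. Enrichment was therefore higher in the later part of the coding sequence and through the short 3′ UTR than upstream. Histone H2A genes are near copies of each other, and the list does not show which copy the reads came from, so the assignment to H2AC11 is uncertain.

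ATF3 had 14 peaks, 3 in the CDS at 3.13, 3.33 and 3.48 and 11 in the 3′ UTR between 3.05 and 7.26. The highest pair lay at chr1:212619714-212619749 (7.26) and chr1:212619751-212619798 (7.06), with the midpoint of the first 176 nt after the stop codon of a 1220 nt 3′ UTR. Values fell on both sides of this pair, to 5.64 and 4.43 upstream and to 5.55 and 4.12 downstream. A separate rise further downstream reached 4.97 at chr1:212620412-212620452. 13 of the 14 peaks overlapped a V5 peak over empty vector, whose highest value was 6.67.

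CDKN1A had 15 peaks, with 2 in the 5′ UTR, 3 in the CDS and 10 in the 3′ UTR. The CDS peaks were at 3.05, 3.19 and 3.22, close to the lower limit of the list. The 3′ UTR peaks ranged from 3.21 to 6.49, and the highest one lay 1267 nt after the stop codon, in the distal part of a 1532 nt 3′ UTR. This peak had a V5 value over empty vector of 3.93, and the highest V5 value on the gene was 4.90, on another 3′ UTR peak. Of the 15 CDKN1A peaks, 9 overlapped a V5 peak over empty vector, where the share over the whole list was 50.4%.

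**Figure D1:**
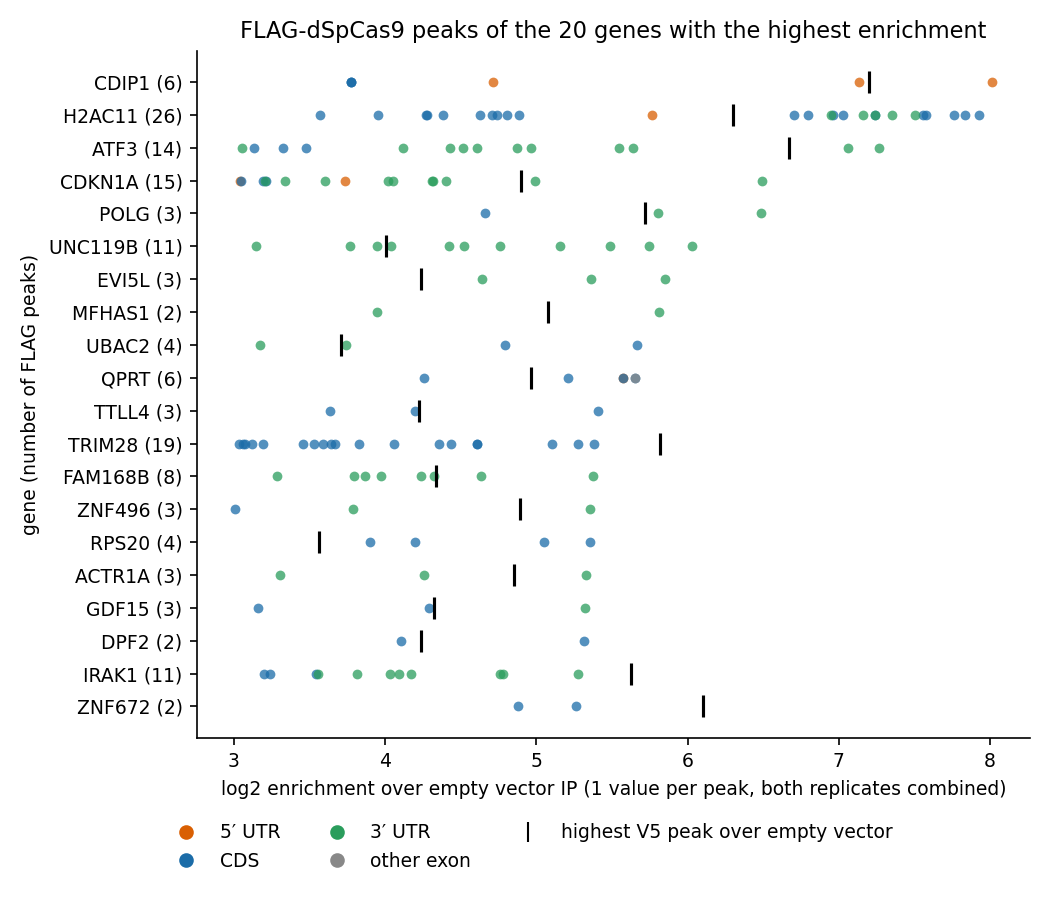
Log2 enrichment over the empty vector IP of every FLAG peak (1 point per peak, coloured by mRNA region) in the 20 genes with the highest enrichment, with the number of peaks per gene in brackets and a black tick at the highest V5 peak over empty vector on the same gene. CDIP1, H2AC11 and ATF3 are the genes with peaks above 7, and peaks of 1 gene can differ by more than 4 log2 units, as on CDIP1 (3.77 to 8.01).

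Several other genes of the top 20 had their highest peak in the 3′ UTR. POLG, the catalytic subunit of the mitochondrial DNA polymerase, had 1 interval of 105 nt across the stop codon, with log2 enrichments of 4.66 in the CDS and 5.80 and 6.48 in the 3′ UTR. UNC119B, which carries lipid-modified proteins to the cilium, had 11 peaks, all in its 3608 nt 3′ UTR, from 3.15 to 6.03. The 3 adjoining peaks of EVI5L, which encodes a regulator of Rab GTPases, were at 4.64, 5.36 and 5.85. FAM168B had 8 peaks, all in the 3′ UTR, up to 5.37, and the highest one overlapped no V5 peak over empty vector. In POLG, EVI5L and FAM168B the highest peak adjoined other peaks with lower values. These genes were picked for their high maxima, and how often 3′ UTRs hold such groups was not counted.

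IRAK1, a kinase of interleukin-1 receptor signalling, had 8 peaks in the 3′ UTR and 3 in the CDS. Its highest value was 5.28 at chrX:154011510-154011516, and the 3 CDS peaks were at 3.20, 3.24 and 3.54. GDF15, a secreted stress cytokine, had 1 peak of 5.33 in its 3′ UTR and CDS peaks of 3.16 and 4.29. ACTR1A, a subunit of the dynein activator dynactin, reached 5.33 and the zinc finger gene ZNF496 reached 5.36, both in the 3′ UTR. MFHAS1 reached 5.81, also in the 3′ UTR, with 2 peaks.

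The coding sequence carried the highest peak of several other genes in this group. UBAC2, a membrane protein of endoplasmic-reticulum-associated degradation, had CDS peaks of 5.67 and 4.79 and 3′ UTR peaks of 3.74 and 3.17. The highest UBAC2 peak overlapped no V5 peak over empty vector. TTLL4, which adds glutamate chains to tubulin, reached 5.41. DPF2, a subunit of the BAF chromatin remodelling complex, reached 5.31 in exon 1 of 11. RPS20 of the small ribosomal subunit had 4 peaks, all in the CDS, up to 5.36. ZNF672 had 2 adjoining CDS peaks of 4.88 and 5.26, and V5 gave it the higher value of 6.10. QPRT, which makes a precursor of NAD, had 6 peaks between 4.26 and 5.65, around its start codon and further into the CDS. Its highest peak (5.655), however, lay in an exon outside the canonical transcript, and its highest CDS peak was at 5.652.

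TRIM28, the corepressor that KRAB zinc finger proteins recruit to chromatin, had 19 peaks in the CDS and none elsewhere. They formed 9 intervals that covered 403 nt. The highest 3, at 5.11, 5.38 and 5.28, adjoined each other between chr19:58545783 and chr19:58545874, around exon 3 of 17. A second group at chr19:58544926-58544979 reached 4.61. The last 6 peaks, from chr19:58549589 onward, were lower and lay between 3.07 and 4.06. The highest V5 value over empty vector was 5.82, on the same peak that was highest with FLAG.

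The number of peaks and the height of the highest peak did not order the genes alike. The 10 genes with the most peaks were H2AC11 (26), WDR1 (20), TRIM28 (19), EEF1G (17), AEN (17), USP22 (16), CDKN1A (15), RPL12 (14), ATF3 (14) and RPLP0 (12). WDR1, a cofactor of actin filament disassembly, was covered over 991 nt with a maximum of 5.22, and 16 of its 20 peaks were in the CDS. AEN, a nuclease induced in apoptosis, was covered over 1157 nt, but its maximum was 4.31. USP22, the deubiquitinase of the SAGA coactivator, had a maximum of 4.47, with 9 CDS and 7 3′ UTR peaks. RPL12, a protein of the large ribosomal subunit, had 14 short CDS peaks that together covered 195 nt and a maximum of 4.28.

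In all, 46 genes reached a log2 of 5. Their highest peak lay in the 3′ UTR in 29, in the CDS in 14, in the 5′ UTR in 1 (CDIP1) and in an exon outside the canonical transcript in 2. Over all 963 genes with a peak in a region of the canonical mRNA, the 3′ UTR held the highest such peak in 515 (53.5%). The CDS held it in 410 (42.6%) and the 5′ UTR in 38 (3.95%). Below the top 20, a few genes are named here after their values were seen, and genes with their functions were not counted over the list. YKT6, a SNARE protein, reached 5.21 with 7 peaks, NBR1, an autophagy receptor, 5.15, MAP1LC3B, which coats autophagosomes, 5.05, and NCOA4, the receptor that sends ferritin to autophagy, 5.00 with 8 peaks. SEC16A, which organizes endoplasmic reticulum exit sites, reached 5.15 with 1 peak.

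Of the 963 genes with a peak in a region of the canonical mRNA, 469 had peaks in the 3′ UTR alone, 359 in the CDS alone and 25 in the 5′ UTR alone. 87 genes had peaks in both CDS and 3′ UTR, and 29 had a 5′ UTR peak together with another region. A gene with 1 peak can lie in 1 region only. Of the 387 genes with 2 or more peaks and a peak in such a region, 135 had them in the 3′ UTR alone, 138 in the CDS alone, 4 in the 5′ UTR alone and 110 in more than 1 region. Among all 399 genes with 2 or more peaks, the median range from the lowest to the highest log2 was 0.62, and 111 genes spanned at least 1 log2 unit. The largest range was 4.36, on H2AC11.

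Messenger RNA exons held nearly the whole list. 1922 of the 1964 peaks (97.9%, interval 97.1 to 98.4%), in 971 genes, overlapped an exon of a protein-coding gene on the same strand. 25 peaks (1.27%) lay on exons of other noncoding genes, 8 on introns of protein-coding genes, 7 on introns of noncoding genes and 2 on a small structured RNA. No peak lay outside an annotated gene on its strand. The mRNA share of the other 3 lists was 97.1 to 98.6%. Among those, the V5 list over empty vector was at 98.6% (interval 98.1 to 98.9%), which overlaps the interval of the FLAG list.

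Small structured RNAs outside mRNA exons held 2 peaks of the FLAG list over empty vector, which adjoined each other on VTRNA1-2, a vault RNA made by RNA polymerase III. Their log2 enrichments were 3.36 and 3.30, near the lower limit, while their −log10 p stood at 400. The V5 list over empty vector had a value of 3.45 on the same RNA. The FLAG list held no tRNA peak, whereas FLAG over size-matched input held 46 on 17 tRNA genes and V5 over empty vector held 14 on 6 tRNA genes. None of those 46 tRNA peaks overlapped the FLAG list over empty vector, compared with 27.9% of all peaks of FLAG over size-matched input. The tRNA peaks over size-matched input were high, with a median of 5.82 and a maximum of 9.52, whereas those of V5 over empty vector lay at or below 3.39. Both FLAG lists used the same IP libraries and differed in their control. The tRNA annotation used here carried no strand. With mRNA exons counted first, no list over empty vector held a peak on an snRNA, a snoRNA or an miRNA gene. With small RNAs counted first, the FLAG list had 5 small RNA peaks instead of 2. The added 3 overlapped miRNA genes that lie within mRNA exons, MIR4700 in the UNC119B 3′ UTR (2 peaks, 4.04 and 3.95) and MIR6874 in RNF216 (3.44), and the mRNA and the miRNA precursor cannot be told apart there.

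The noncoding exons included 9 long noncoding RNA genes with 15 peaks and 5 processed pseudogenes with 8 peaks. FIRRE, a long noncoding RNA known for nuclear organization, had 2 peaks of 4.80 and 3.62, and neither overlapped a V5 peak of any list. SNHG16 had 4 peaks between 3.09 and 3.40, and SNHG5 had 2, at 3.64 and 3.20. Both are hosts of snoRNAs in their introns. LINC02693 and EBLN3P reached 3.66 and 3.63, and the transcribed pseudogene CENPBD1P reached 3.96.

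The pseudogene peaks were RPL13AP5 (4.75 and 4.22), RPLP0P6 (4.46), RPL14P1 (4.13 and 3.99) and RPS28P7 (3.73), plus 1 unnamed gene on chromosome 7. All 4 named ones are copies of ribosomal protein mRNAs. RPL13A, RPLP0 and RPS28, the parents of 3 of them, had peaks of their own, with maxima of 3.48, 4.58 and 3.89. Reads of a processed pseudogene and its parent are alike in sequence, so the list does not show which of the 2 the RNA came from.

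The 15 intron peaks fell on 8 genes, named here after their values were seen. CSNK2A2, a catalytic subunit of casein kinase 2, had 4 of them between 3.15 and 4.04, at chr16:58160547-58163768 on the minus strand, and FLNA, an actin cross-linker, had 1 at 4.32. The intron of LINC01581 reached 4.67. 2 unnamed noncoding genes had 3 touching peaks each in an intron. Those on chromosome 19 were at 3.58 to 3.62 and overlapped a peak of up to 7.13 in FLAG over size-matched input. Those on chromosome 11 were at 3.24 and overlapped one of 9.40. Neither overlapped a V5 peak over empty vector.

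Within mRNAs, the peaks were split almost evenly between coding sequence and 3′ UTR. Of the 1902 peaks with a midpoint in a region of the canonical transcript, 926 (48.7%, interval 46.4 to 50.9%) lay in the CDS, 910 (47.8%, interval 45.6 to 50.1%) in the 3′ UTR and 66 (3.47%, interval 2.74 to 4.39%) in the 5′ UTR. The 3 regions took 47.0%, 47.9% and 5.09% of the length of the same mRNAs. CDS and 3′ UTR thus held about as many peaks as their lengths, and the 5′ UTR held fewer, 0.682 times its share of the length. No random placement was drawn, so this comparison has no test.

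The V5 list over empty vector had another balance. Its CDS held 62.5% (interval 60.8 to 64.3%), its 3′ UTR 28.3% (interval 26.7 to 29.9%) and its 5′ UTR 9.20% (interval 8.20 to 10.3%), and none of these intervals overlapped that of the FLAG list. The genes differed too, and their 3′ UTRs took 42.7% of the length. Relative to length, the 3′ UTR was at 0.998 in the FLAG list and at 0.661 in the V5 list. The lists over size-matched input lay between them for the 3′ UTR, with 40.8% for FLAG and 38.7% for V5. Antibody, tag and transfection change together between the FLAG and V5 lists and cannot be told apart.

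**Figure D2:**
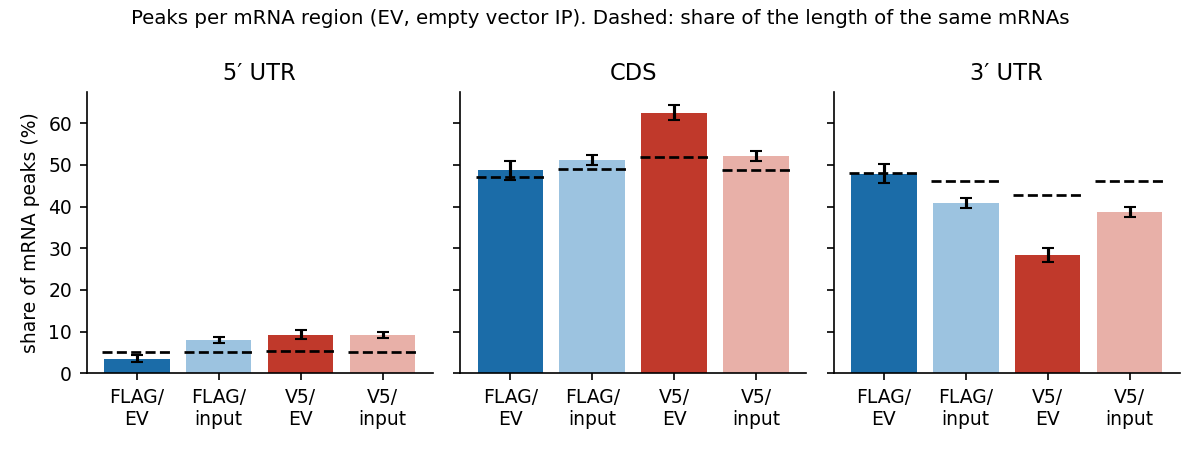
Share of mRNA peaks by region in each of the 4 lists (bars, with 95% Wilson intervals for counting error), and the share of the length of the same mRNAs that each region takes (dashed lines); EV is the empty vector IP and input is the size-matched input. The FLAG list over EV has the highest 3′ UTR bar (47.8%) and the lowest 5′ UTR bar (3.47%).

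Enrichment differed little between regions at the median. The 3′ UTR peaks ran from 3.00 to 7.50 with a median of 3.64, the CDS peaks from 3.00 to 7.93 with a median of 3.54, and the 5′ UTR peaks from 3.01 to 8.01 with a median of 3.66. The order-statistic interval of the median was 3.58 to 3.69 in the 3′ UTR and 3.50 to 3.58 in the CDS, and for the 66 5′ UTR peaks it was 3.50 to 3.85. The upper end differed more. 275 of the 3′ UTR peaks (30.2%) reached a log2 of 4, against 205 of the CDS peaks (22.1%). At that level the 3′ UTR held 54.9% and the CDS 40.9% of the peaks. CDS peaks were also shorter, with a median of 54 nt against 88 nt in the 3′ UTR.

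Peaks were spread over the whole of the CDS. Its 5 equal parts held 19.0 to 20.6% of the CDS peaks each. In the 3′ UTR the same 5 parts, from the stop codon on, held 21.6%, 23.6%, 24.5%, 18.1% and 12.1%, so the part next to the poly(A) end held the fewest. The median 3′ UTR peak lay 926.5 nt after the stop codon, in 3′ UTRs with a median length of 2440.5 nt, and 122 of the 910 (13.4%) lay within 200 nt of the stop codon. 43 peaks spanned a start codon and 53 a stop codon. The last exon held 1040 peaks (54.7%) and the first exon 148 (7.78%). Of the 905 CDS peaks in genes with several exons, 431 (47.6%) ended at or ran past an exon boundary. 167 of them ran past the boundary.

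**Figure D3:**
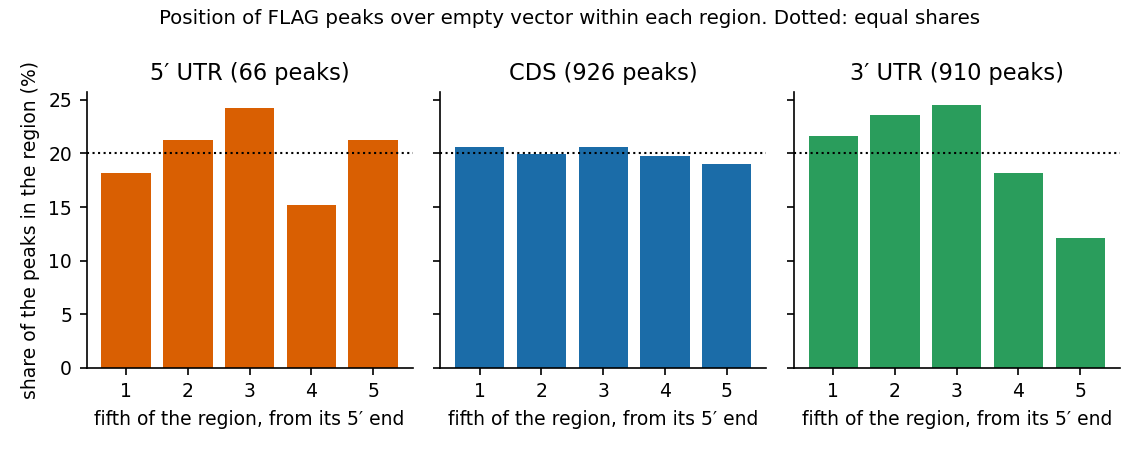
Share of the FLAG peaks over empty vector in each of 5 equal parts of the 5′ UTR, CDS and 3′ UTR, counted from the 5′ end of the region, with a dotted line at equal shares. The CDS bars stay between 19.0 and 20.6%, and the last part of the 3′ UTR is the lowest at 12.1%.

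The V5 experiment shares no library with the FLAG experiment. 990 of the 1964 FLAG peaks (50.4%, interval 48.2 to 52.6%), in 474 genes, overlapped a V5 peak over empty vector on the same strand by at least 1 nt. Seen from the V5 list, 921 of 3005 peaks (30.6%) overlapped a FLAG peak. The share rose with the FLAG enrichment. In 4 groups of about equal size by log2, from low to high, it was 41.1%, 45.4%, 48.6% and 66.7%, and the highest group began at a log2 of 4.02. By region it was 75.8% in the 5′ UTR (interval 64.2 to 84.5%), 51.2% in the CDS and 48.8% in the 3′ UTR. Of the 42 peaks outside mRNA exons, 8 (19.0%) overlapped a V5 peak over empty vector.

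Each of the 990 overlapping peaks was set against the highest V5 peak that it overlapped, which can raise the V5 side. The median log2 enrichment was 3.72 with FLAG and 4.04 with V5, and FLAG had the higher value at 352 (35.6%). Across these peaks Pearson's r was 0.42 and Spearman's rho 0.34. These are descriptions without a p-value, because peaks of 1 gene are not independent and adjoining FLAG peaks often share the same V5 peak. Taken per gene, with the highest value in each list, 567 genes had both and r was also 0.42. The medians of these genes were 3.79 with FLAG and 4.01 with V5, and FLAG was higher in 220 (38.8%). The genes with the highest FLAG values were above V5, but they were picked by FLAG, which can by itself leave V5 lower. CDIP1 was at 8.01 with FLAG and 7.20 with V5, H2AC11 at 7.93 and 6.30, and UNC119B at 6.03 and 4.01. TRIM28, IRAK1 and ZNF672 went the other way, as did RPLP0 (4.58 and 5.80) and RPL8 (3.92 and 6.13).

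**Figure D4:**
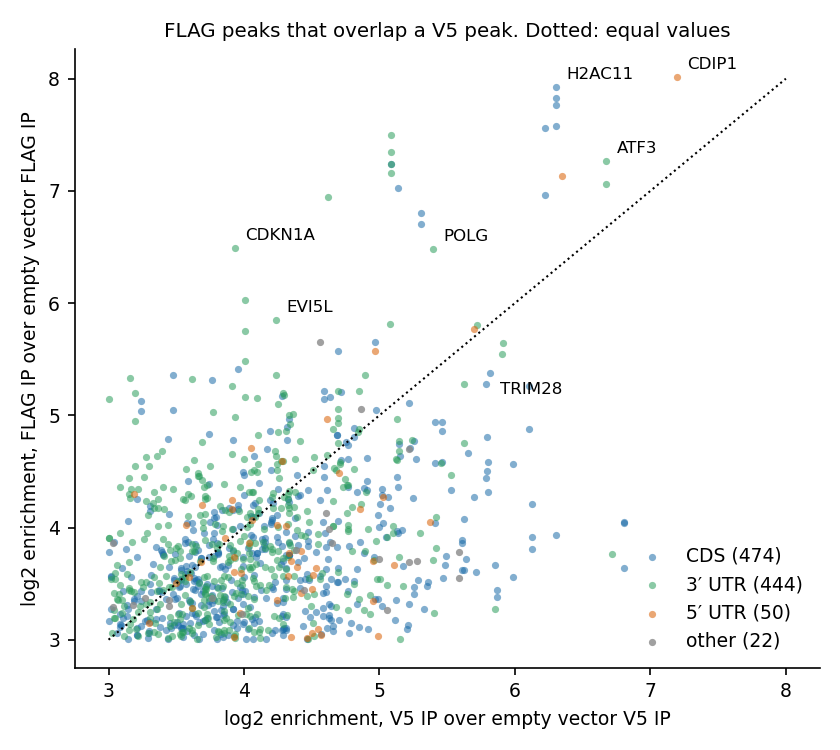
Log2 enrichment over empty vector of the 990 FLAG peaks that overlap a V5 peak (vertical axis) against the highest overlapping V5 peak (horizontal axis), coloured by mRNA region, with a dotted line at equal values. Most points lie below the line (FLAG is higher at 352 of 990), while the highest peaks of CDIP1, H2AC11, ATF3 and CDKN1A lie above it. These named peaks were picked for their high FLAG values.

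Set beside all 3 other lists, 916 FLAG peaks (46.6%) overlapped a peak in each of them, with a median log2 of 3.75 and a median −log10 p of 16.9. 115 peaks (5.86%) overlapped none, with a median log2 of 3.37 and a median −log10 p of 4.49. FLAG over size-matched input uses the same IP libraries, so its overlap of 1777 peaks is no independent count. Of the 187 peaks outside that list, the highest were on CBL (5.12), COPS3 (4.98), CMBL (4.57), ZNF740 (4.45) and GOLGA7 (4.38). CBL is a ubiquitin ligase that turns off receptor tyrosine kinases, and COPS3 is a subunit of the COP9 signalosome. The peaks of CBL and COPS3 overlapped no V5 peak either. CMBL was at 4.24 and ZNF740 at 3.26 in V5 over empty vector.

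The genes were then read against 19 gene lists. A gene counted when it had at least 1 peak in the FLAG list, out of the members with a peak in any of the 4 lists. Over all 3631 genes with a peak in any list, this share was 27.4%. The list of DNA damage and stress induced genes stood highest among lists with more than 2 members, at 16 of 25 (64.0%). It was drawn up with earlier results of these data known, so its share is not independent evidence. All 16 also had a V5 peak over empty vector, against 567 of all 996 genes of the FLAG list and 15 of its 16 cytoplasmic ribosomal protein genes. Besides CDIP1, ATF3, CDKN1A and GDF15, they included SESN1 (4.61), a sestrin that restrains mTORC1, AEN (4.31), CCNG1 (4.26), SESN2 (4.18) and MDM2 (4.17), the ubiquitin ligase with 6 peaks. The lowest were XPC (3.07) and ZMAT3 (3.05). Of their 81 peaks, 40 lay in the 3′ UTR, 33 in the CDS and 8 in the 5′ UTR. Whether these RNAs were more abundant in the cells with dSpCas9 was not tested.

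Cyclins, CDKs and other cell cycle genes had 14 of 34 (41.2%). After CDKN1A (6.49) came the transcription factor E2F2 (4.44), CCNG1 (4.26) and cyclin A2, CCNA2 (4.08). MCM7, MCM2 and CDK4 were at 3.16, 3.05 and 3.01. Chromatin modifiers had 13 of 43 (30.2%), close to the share of all genes. After TRIM28 (5.38) they were led by the 5-methylcytosine oxidase TET3 (4.63), the lysine methyltransferase SETD7 (4.13) and the histone demethylase KDM5B (4.10). 39 of their 44 peaks were in the CDS, 19 of them on TRIM28 alone, where the CDS share over all mRNA peaks was 48.7%.

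Cytoplasmic ribosomal protein genes had 16 of 51 (31.4%), also near the share of all genes, with 75 of their 89 peaks in the CDS. At a log2 of at least 4 they had 10 of 51 (19.6%), against 8.62% of all genes. Of the 37 with a FLAG peak over size-matched input, 16 (43.2%) were in the list, against 35.7% of all such genes. RPS20 (5.36), RPL21 (5.00), RPS12 (4.94), RPLP0 (4.58) and RPL12 (4.28) were highest. In the V5 list over empty vector, 41 of the same 51 genes (80.4%) had a peak, against 36.6% of all genes. A like gap between V5 and FLAG was seen in splicing factors, with 6 of 28 in the FLAG list and 21 in the V5 list. Of the 12 splicing factors with a FLAG peak over size-matched input, however, 6 (50.0%) were in the list, against 35.7% of all such genes, so the position of this list against the background depends on the denominator. SF3A1 (5.06), of the U2 snRNP, was the highest of the 6. RNA helicases (5 of 21 against 14), translation factors (8 of 33 against 21) and chaperones (8 of 36 against 21) went the same way. Among genes with a FLAG peak over size-matched input, helicases had 5 of 13 (38.5%) and translation factors 7 of 19 (36.8%). Chaperones had 8 of 22 (36.4%). All of these shares were close to that of all such genes (35.7%). EEF1G (4.89), a subunit of the elongation factor that reloads eEF1A, led the translation factors with 17 peaks, and DHX34 (4.25) led the helicases.

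Low shares were found in histones, with 3 of 34 (8.82%), and in the proteasome, with 2 of 18 (11.1%). The 3 histone genes were H2AC11 (7.93), H3C6 (3.87) and MACROH2A2 (3.76), whereas 17 of the 34 had a V5 peak over empty vector. The 2 proteasome genes were PSMB5 (3.81) and PSMD2 (3.48). Tubulins and kinesins had 1 of 10, KIF1A (4.42). Lists close to the share of all genes were solute carriers (15 of 55, led by SLC38A1 at 4.77), zinc finger genes (17 of 65, led by ZNF496), ubiquitin conjugation and removal (20 of 78, led by USP48 at 5.17) and small GTPases (8 of 28, led by RAB10 at 4.25). Respiratory chain genes had 5 of 21, mitochondrial ribosomal proteins 4 of 21 (led by MRPL49 at 3.54) and aminoacyl-tRNA synthetases 3 of 16 (led by MARS1 at 4.36). Of the 11 respiratory chain genes with a FLAG peak over size-matched input, however, 5 (45.5%) were in the list, against 35.7% of all such genes. Of the long noncoding RNA list, 1 of 2 members, SNHG5, had a peak. ACTB and GAPDH, mRNAs that are abundant in most cells, had no peak in the list, and GAPDH had 1 peak of 3.72 in FLAG over size-matched input.

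**Figure D5:**
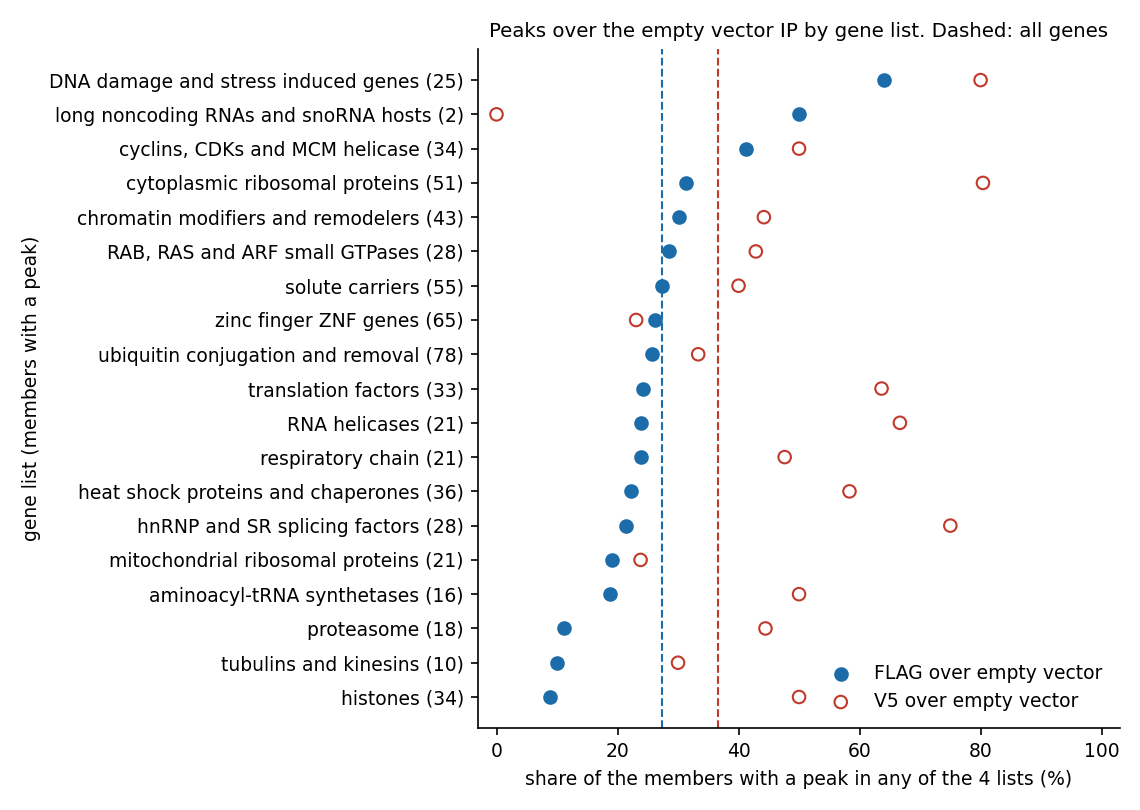
Share of the members of each gene list with a peak in the FLAG list (filled) and in the V5 list (open) over empty vector, of the members with a peak in any of the 4 lists (number in brackets), with dashed lines for all genes at 27.4% (FLAG) and 36.6% (V5). DNA damage and stress induced genes lie to the right of both lines, and ribosomal proteins are at 31.4% for FLAG and 80.4% for V5.

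With the limits given beside the sequences, the GU-loop:5nt-stem model called at least 1 site in 784 of the 1964 peaks (39.9%, interval 37.8 to 42.1%). The share was 47.7% in the 3′ UTR, 31.3% in the CDS and 50.0% in the 66 5′ UTR peaks. It followed length closely, from 6.76% of the peaks under 25 nt to 63.8% of those of 100 nt or more, and the shorter CDS peaks were part of this range. The same 4 groups by log2, from low to high, had 42.8%, 41.8%, 37.1% and 38.1%, and their median lengths were 78, 82, 71 and 64.5 nt. Peaks with and without an overlapping V5 peak over empty vector had 39.4% and 40.5%, with median lengths of 67 and 80 nt. These groups thus differ in length as well, and were not compared at equal length.

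Windows of equal length directly beside the peaks gave a local comparison. Over all 3928 such windows, some of which reach into introns or other peaks, 28.5% had a site. 838 windows lay in the same exon and region as their peak and held no peak of any list. These 838 pairs came from 653 peaks, so a peak with 2 such windows counts in both pairs. In the pairs, 44.4% of the peaks and 28.5% of the windows had a site. The site was in the peak alone in 244 pairs and in the window alone in 111. For the 669 pairs in the 3′ UTR the shares were 49.3% and 31.1%, and for the 165 in the CDS 25.5% and 18.8%. The peaks thus held the site more often than the adjoining sequence, and more than 1 in 4 of the adjoining windows held it as well.

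Base composition moved with this difference, and its part in it was not tested. In 653 pairs of merged intervals and windows in the 3′ UTR, from 474 intervals, each counted once for every window it had, the intervals had 52.2% G and C against 45.3% in the windows, with G at 27.8% against 23.4% and A at 21.5% against 26.1%. In the CDS the gap was small, 56.9% against 55.5% in 155 pairs from 140 intervals. The 4-base words with the largest excess in 3′ UTR intervals, chosen after their values were seen, were GUGG (in the interval of 57.7% of the pairs and in the window of 36.3%), UGGC (53.9% and 35.1%) and CUGG (66.5% and 48.1%). CCUG (64.5% and 46.9%) came next, then UGUG at 61.4% and 44.7%. In CDS intervals AAGU led (29.0% and 14.2%), followed by CUGG (44.5% and 31.6%) and UCCU (31.6% and 19.4%). GUGC came next in the CDS pairs, at 26.5% and 14.8%. Words were searched on the strand of the gene only, and a word counted once per interval however often it occurred.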

How the data were processed

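The deposited lists are peaks of eCLIP libraries on hg38 (GRCh38). Per the submitters' processing notes, tools included cutadapt 1.14, UMI-tools 1.0.0, STAR 2.4.0i and SAMtools 1.6. The authors called peaks, compared IP with control reads and merged both replicates by the Irreproducible Discovery Rate. Deposited values are a log2 enrichment (geometric mean ratio over the replicates) and the −log10 of a p-value. Scaling for library size is not given in the sources used here. Depth is unknown, since the lists hold no counts.

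Peaks were assigned on the same strand to GENCODE 44 genes and RefSeq tRNA genes (tRNAs without strand), in the order protein-coding exon, small structured RNA, other noncoding exon, intron. Regions are those of the canonical transcript at the midpoint of a peak. Peaks overlapped when they shared at least 1 nt. Positions are 1-based. The folding model ran RNAplfold of ViennaRNA 2.7.2 (window and span of 70 nt) with 50 nt on either side, with limits of 0.7 for the U and 0.5 for the 5 stem bases. Shares have 95% Wilson intervals. Scripts ran in Python 3.11.15 with scipy 1.17.1, pandas 2.3.3 and numpy 2.4.6, and the steps were tested on simulated peaks and hairpins.

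The genes named were the 20 with the highest log2, the 10 with the most peaks, CDIP1, ATF3, CDKN1A, ACTB, GAPDH, the 10 highest noncoding loci, the 5 highest outside the FLAG list over size-matched input, and the 3 highest of each of 19 gene lists. Others named (SNHG16, EBLN3P, MCM2, MCM7, CDK4, XPC, ZMAT3, AEN, CCNG1, SESN1, SESN2, MDM2, RPL8, RPL13A and RPS28 among them) were chosen after their values were seen. The members and the gene lists were chosen with earlier results of these data known. Symbols that only look like members, such as HSPG2 among chaperones and ARL2BP among GTPases, were removed after values were seen. Genes that are withheld from this work are not reported here.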

Additional observations from a re-analysis of the deposited data

How the results depend on the processing

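No paired analysis was possible because each peak has 1 value for both replicates, and for the same reason no replicate could be left out. A log2 of at least 4 left 515 peaks in 313 genes, and a −log10 p of at least 10 left 848 peaks in 376 genes. At a log2 of 4 the mRNA share was 98.4% and that of small structured RNAs 0%, the CDS fell to 40.9% and the 3′ UTR rose to 54.9%, overlap rose to 98.1% (FLAG over input), 65.6% (V5 over empty vector) and 82.7% (V5 over input), and 8.62% of all genes had a peak. With 1 peak per gene the CDS held 42.6% and the 3′ UTR 53.5%, and the 3′ UTR median was 3.70. Counting every region a peak touched gave 51.4% CDS and 4.94% 5′ UTR. The even split of CDS and 3′ UTR therefore holds for peaks, not for genes or for the higher peaks. Requiring 50% of the FLAG peak gave overlaps of 87.9%, 46.9% and 66.3%, and 50% of both peaks 84.4%, 35.9% and 53.8%, in the same order. Among genes with a FLAG peak over input, 35.7% were in the list. The motif share was 13.8% at a stem limit of 0.7, 49.7% in peaks of 40 nt or more and 47.4% after merging. In the paired windows, chosen after seeing the data like the fits without H2AC11 and without genes of 10 or more peaks, it was 44.4% for peaks and 28.5% beside them. Counting small RNAs first raised their peaks from 2 to 5 (0.255%). The other 33 values for these results stayed within their intervals or within 1.5 times their counts.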
